A study of Sus scrofa with 9 samples.

Results

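The cytoskeleton and motor genes measured in developing molar germs of the miniature pig are described here. They were chosen by symbol: tubulins, gamma tubulin complex proteins, kinesins, cytoplasmic dynein subunits, actin-related proteins, subunits of the ARP2/3 complex, capping proteins, cofilins, profilins, thymosin beta, numbered myosins, and TPM1, TPM3, TPM4 and VCL. The rule found 53 genes on 87 probe sets, of 6765 genes with a single symbol and 23999 probe sets in all, and it did not use the measured changes. Where a gene had several probe sets, as 23 of the 53 did, the one with the highest mean signal stands for it. The rule takes symbols by their letters, so it also holds CFLAR, a regulator of apoptosis, and ACTR6, an actin-related protein of chromatin. TMSB4X is not among the 53, since its 5 probe sets list that symbol more than once and were left out with 6 others that list several symbols.

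Microtubules are polymers of alpha and beta tubulin, along which kinesins and cytoplasmic dynein carry cargo. Actin filaments are branched by the ARP2/3 complex, capped at their growing ends by the CAPZ proteins, severed by cofilins and supplied from a pool of monomers held by thymosins and profilins. In a tooth germ both systems shape cells while the epithelium folds from cap to bell and while cells elongate and polarise on either side of the later enamel and dentin border.

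Additional molar germs, the teeth that form behind the milk dentition without a predecessor, were dissected with the attached dental lamina from mandibles of Wuzhishan miniature pig fetuses. There were 3 Affymetrix porcine arrays at each stage: E50, with the first molar at the cap stage and the second not begun, E60, with the first at the bell stage and the second beginning, and E70, with the first at the late bell stage. No group was treated or genetically altered, and ages are days of gestation. Germs of 1 stage were pooled for RNA, so the arrays, although labelled biological replicates, may share animals, and p-values then measure only the spread between these arrays.

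Values below are log2 of the deposited MAS 5.0 signal. Differences were fitted with limma over all 9 arrays and all 23999 probe sets, and a gene is said to have risen or fallen where its Benjamini-Hochberg adjusted p was under 0.05. The E50 arrays stood apart: the 3′ to 5′ signal ratio of the EF1A control probe sets, a sign of RNA quality, was 49.3 to 55.8 at E50, against 1.42 to 1.56 at E60 and 1.35 to 1.47 at E70. Background signal, the 95th percentile of 23 background control probe sets, spanned 77.7 to 379 on the E50 arrays, against 37.9 to 54.4 on those of E60 and 38.1 to 55.8 on those of E70. Correlation between arrays of a stage over all probe sets was 0.605 to 0.683 at E50 and at least 0.901 later. Stage and these array properties cannot be told apart in any comparison with E50, and fewer cells of a type and less RNA per cell cannot be told apart anywhere in these pooled tissues. Of the tooth markers, 9 of 12 mesenchyme genes but only 2 of 7 epithelium genes were above background on all E50 arrays. At E60 these counts were 10 and 2, and at E70 they were 9 and 4.

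The median SD between arrays over the 53 genes (log2 scale) was 0.41, 0.13 and 0.18 at the successive stages. Above background on all 3 arrays were 35 of the 53 at E50, 47 at E60 and 47 at E70. At E50, 5 were below background on every array (TUBA1A, TUBB4B, ACTR3B, ARPC2 and MYO1E), at E60 ARPC2 and MYO7A were, and at E70 MYO7A was. There the values of those genes give only an upper bound.

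Over the 3 stages 12 of the 53 genes changed by limma's moderated F test, 22.6% of them, where 20.6% of all genes did. Between E50 and E60, 6 rose, 11.3% of them against 7.2% of all genes, and 5 fell, 9.43% against 13.7%. Between E50 and E70, 7 were higher, 13.2% against 7.33% of all genes, and 5 were lower, 9.43% against 14.3%. Between E60 and E70 no member was called higher, where 0.118% of all genes were, and none lower, where 0.606% were. Genes that rose were KIF3A, DYNC1I2, CAPZA2, MYO6, VCL and TUBB4B at E60. Higher at E70 than at E50 were KIF3A, DYNC1I2, CAPZA2, VCL, TUBB4B, TUBB and KIF5C, but not MYO6 (adjusted p = 0.133, limma). Those that fell were TMSB10, ARPC3, CFL1, MYO10 and MYO1C at E60. Lower at E70 than at E50 were TMSB10, ARPC3, MYO10, ARPC1B and TPM1. CFL1 and MYO1C did not pass there (adjusted p = 0.0977 and 0.0654, limma). The median change of the 53 was 0.07 from E50 to E60 (all genes -0.18) and 0.08 from E60 to E70 (all genes 0.05).

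**Figure D1:**
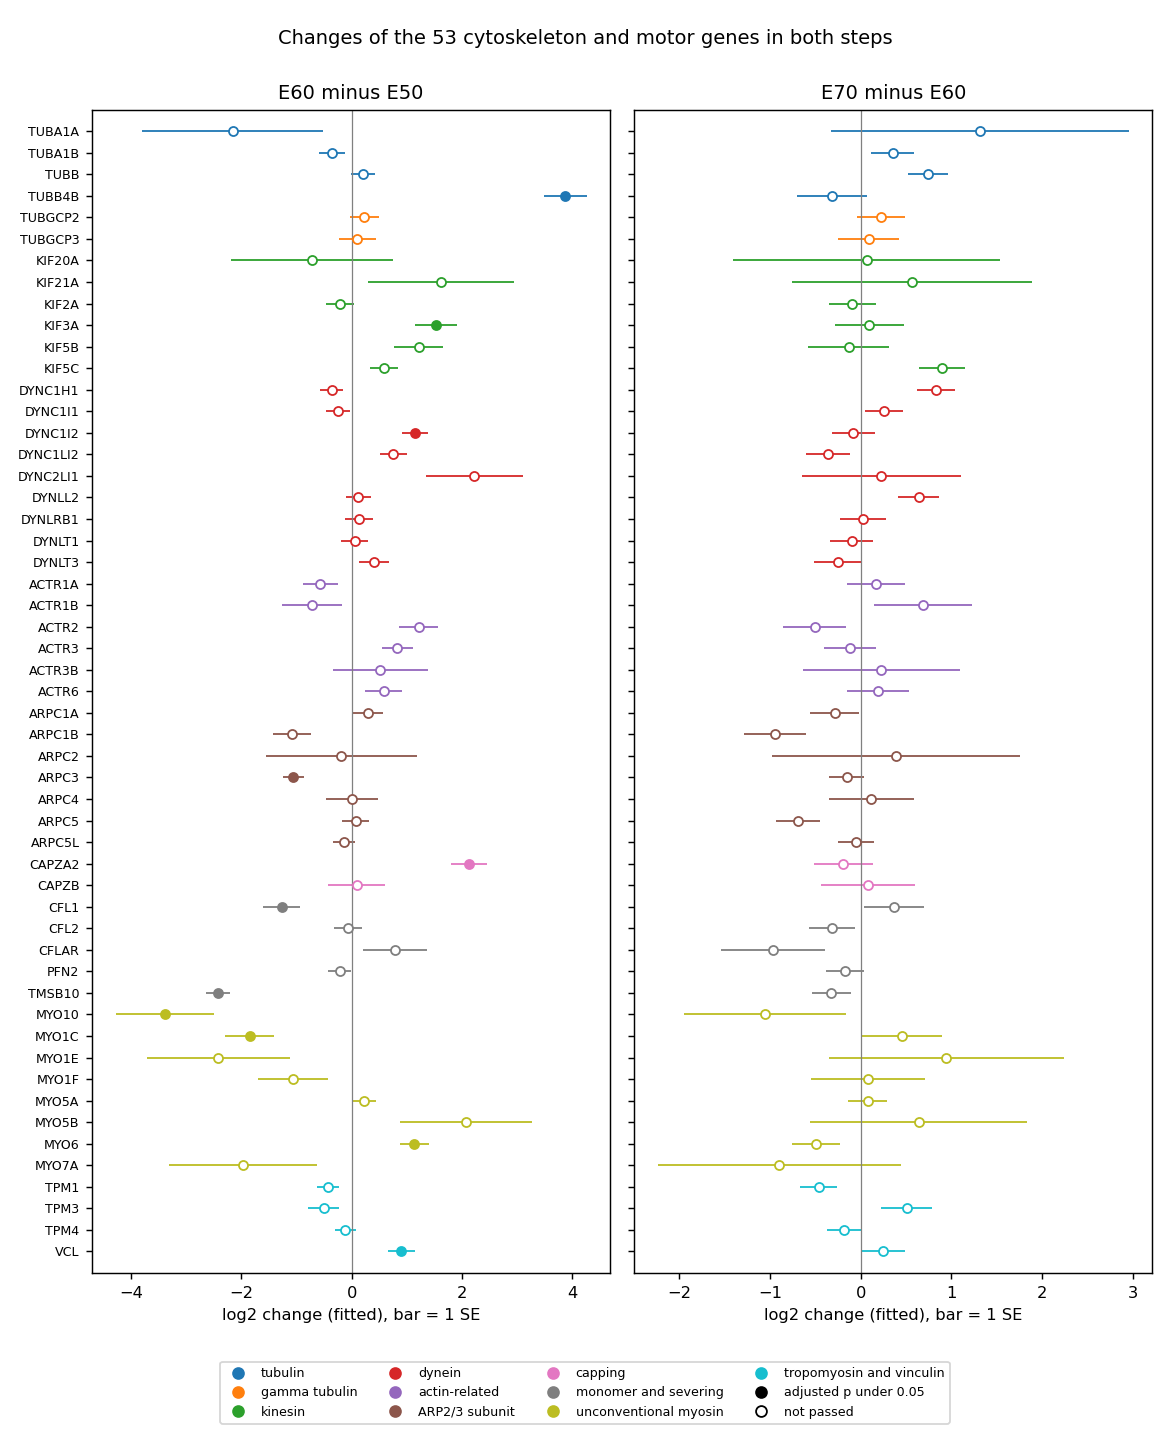
Fitted log2 change of each of the 53 genes, E60 minus E50 on the left and E70 minus E60 on the right, each on its own axis, with bars of 1 standard error and colours by role. Filled points passed an adjusted p of 0.05, which 11 genes did on the left and 0 on the right.

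The scaling of the arrays sets the balance of rises and falls against E50. Centring each array on its own median moved the median change of all probe sets from -0.18 to 0.60 for E60 minus E50, and then 18 members were higher and 1 was lower at E60. Quantile normalization moved it to 0.00, with 3 members lower. All 11 genes called between E50 and E60 and all 12 called between E50 and E70 kept the sign of their change under both. In the later step the scalings moved the median of all probe sets little, from 0.05 to 0.01 and -0.01.

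**Figure D2:**
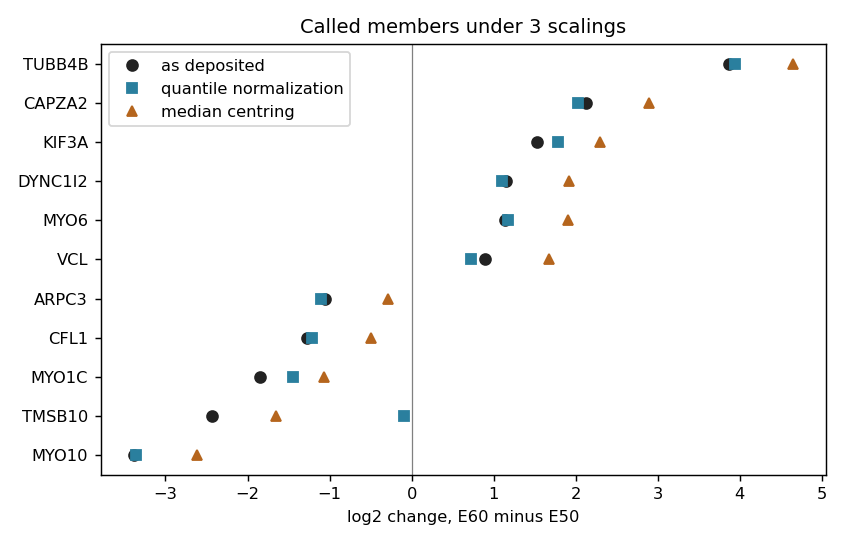
Log2 change from E50 to E60 of the 11 genes called in that step, from the signals as deposited (circles), after quantile normalization (squares) and after median centring (triangles). Each gene stays on its side of 0, TMSB10 moves from -2.43 to -0.09 under quantile normalization, and median centring places every gene to the right of its deposited value.

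Among the tubulins, TUBB4B, a beta tubulin isotype abundant in cilia, was above background on every E60 and E70 array and on no E50 array. Its log2 signals were 4.81, 3.60 and 4.40 at E50, 8.41, 8.00 and 8.02 at E60 and 7.50, 7.62 and 8.36 at E70. All E50 arrays were under their own background and all later arrays above theirs. Backgrounds were higher at E50, and that of E50 replicate 3, at 8.56, exceeded every later TUBB4B signal, as that of E50 replicate 1, at 7.95, exceeded 2 of the E70 signals. Taken against the mean of the 3 E50 backgrounds, the mean E60 signal was 1.46-fold higher (adjusted p of the fitted difference = 0.00192, limma) and the mean E70 signal 1.17-fold (adjusted p = 0.00167), which is no bound for a single array. The call held in all 18 alternatives run.

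TUBB, a widely expressed beta tubulin, had 12.30, 12.15 and 12.31 at E50, 12.37, 12.69 and 12.31 at E60 and 13.36, 13.20 and 13.04 at E70. The E70 arrays lay above every earlier array, while E50 and E60 overlapped. The change from E50 to E70 was 0.94 ± 0.22 (SE), or 1.92-fold (adjusted p = 0.024, limma). The call was lost in 7 of 18 alternatives, among them the fit of those stages alone (adjusted p = 0.0948). The fits without any E70 array or E60 replicate 1 lost it too (adjusted p = 0.0511 to 0.0811). TUBA1B, the brightest tubulin probe set, had E50 arrays of 14.58 to 15.00, E60 arrays of 14.46 to 14.49 and E70 arrays of 14.58 to 15.09. Its E60 arrays lay below those of both other stages as deposited, and the change from E50 was -0.36 ± 0.23 (adjusted p = 0.324). That change turned to 0.23 under quantile normalization and 0.42 under median centring (adjusted p = 0.490 and 0.349). TUBA1A, an alpha tubulin prominent in neurons, was below background on every E50 array and not above it on all 3 arrays of either later stage. The 2 gamma tubulin complex proteins, TUBGCP2 and TUBGCP3, which belong to the ring that nucleates microtubules, changed by 0.23 ± 0.26 and 0.11 ± 0.34 from E50 to E60 and passed no test.

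**Figure D3:**
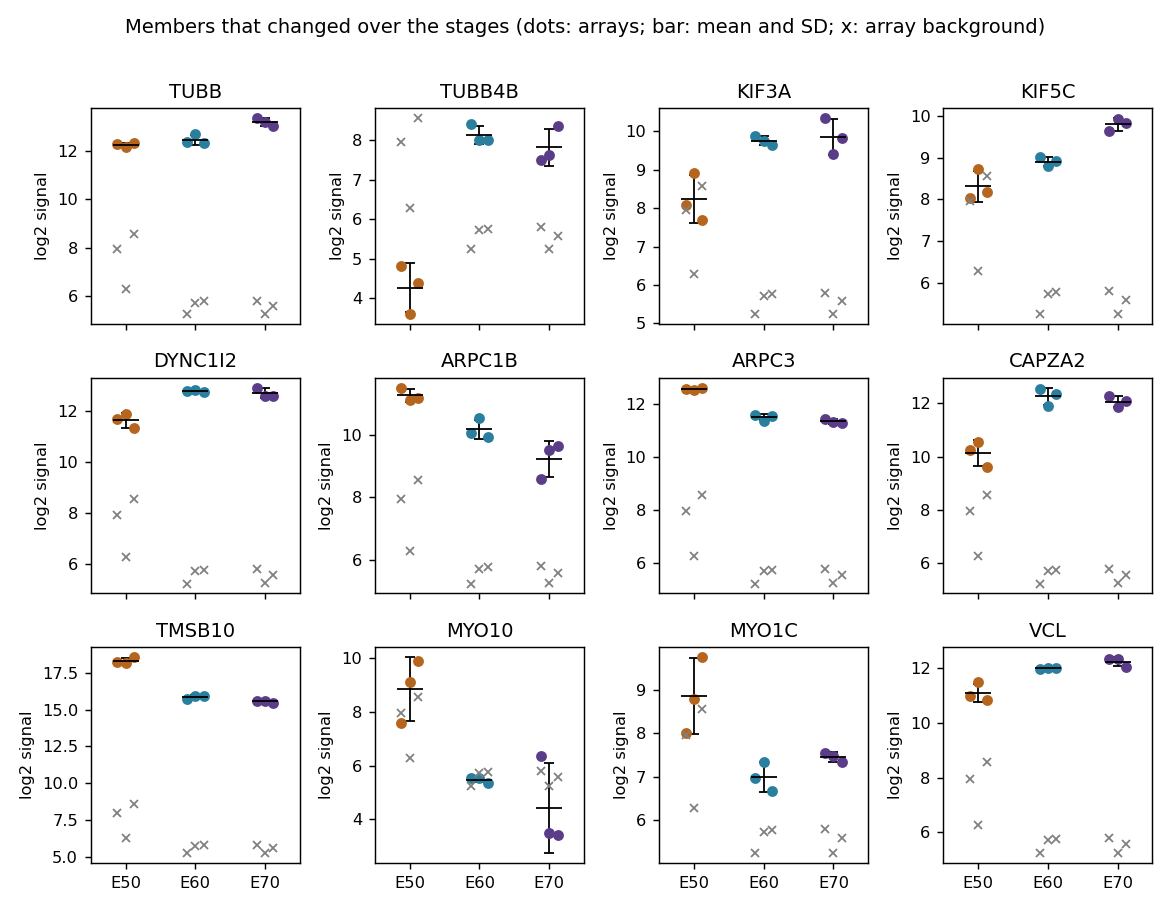
Log2 signal on each array of the 12 genes that changed over the stages, with the mean and SD of each stage as a bar and each array's own background as a cross; vertical axes differ between panels. TUBB4B lies below background at E50 only, MYO10 lies near or below background at E60 and E70, and TMSB10 has the brightest signals.

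Of the 6 kinesins, KIF3A rose at E60 and stayed high. It encodes a motor subunit of kinesin-2, which carries cargo into cilia. Its arrays read 8.07, 8.92 and 7.70 at E50, 9.87, 9.75 and 9.65 at E60 and 10.34, 9.40 and 9.82 at E70. All later arrays lay above all E50 arrays, of which 2 were above background. The rise to E60 was 1.52 ± 0.38, or 2.88-fold (adjusted p = 0.0326, limma), and 9 of 18 alternatives lost it. Among them were the fits without any E60 array, E50 replicate 1 or 3, or E70 replicate 3 (adjusted p = 0.0511 to 0.105). At E70 it was 1.62 ± 0.38 higher than at E50 (adjusted p = 0.0257), and 5 of 18 alternatives lost that call. Among them were the fits without E70 replicate 1 or 3 (adjusted p = 0.0785 to 0.0826) and of those stages alone (adjusted p = 0.0946). Of its 3 other probe sets, 2 had changes of 3.06 and 2.83 and 1, near background, had -0.59, none of which passed the test.

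KIF5C, a heavy chain of conventional kinesin best known from neurons, was higher at E70 than at E50. It had 8.02, 8.73 and 8.18 at E50, 9.01, 8.79 and 8.91 at E60 and 9.64, 9.93 and 9.82 at E70. No stage overlapped another, and 2 of the E50 arrays were above background. From E50 to E70 it rose by 1.49 ± 0.25, or 2.80-fold (adjusted p = 0.00842, limma), a call lost in 1 of 18 alternatives, the fit of those stages alone (adjusted p = 0.0532).

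KIF5B, the conventional kinesin heavy chain of most tissues, had 7.92, 8.90 and 9.82 at E50 and 9.80 to 10.14 later. The E60 arrays lay above those of E50, but the E50 spread (SD 0.95) was wide and the change of 1.22 ± 0.45 did not pass (adjusted p = 0.0992). KIF2A, a kinesin that takes tubulin off microtubule ends, had changes of -0.21 ± 0.26 and -0.09 ± 0.26 in the earlier and the later step. KIF20A, which acts in cytokinesis, and KIF21A, whose E50 arrays ran from 3.33 to 9.18, had standard errors of 1.47 and 1.32, and neither passed.

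Of 9 dynein subunits, DYNC1I2, an intermediate chain that holds the motor to dynactin and cargo, was the one that passed. It had 11.72, 11.90 and 11.33 at E50, 12.79, 12.82 and 12.78 at E60 and 12.93, 12.61 and 12.60 at E70. Every later array lay above every E50 array. The rise to E60 was 1.14 ± 0.24, or 2.21-fold (adjusted p = 0.0173, limma), and 6 of 18 alternatives lost the call, those without any E60 array among them (adjusted p = 0.0605 to 0.0669). At E70 it was 1.07 ± 0.24 higher than at E50 (adjusted p = 0.0208), and 7 of 18 alternatives lost that call. Among them were the fits without any E70 array (adjusted p = 0.0557 to 0.0719). Its other, dimmer probe set had a change of -0.39 (adjusted p = 0.500), so the rise rests on 1 probe set.

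The other dynein subunits did not pass against E50. DYNC1LI2, a light intermediate chain, changed by 0.76 ± 0.24 from E50 to E60 (adjusted p = 0.0651), with E60 arrays all above. DYNC2LI1, from the dynein-2 motor of cilia, had 9.48, 8.27 and 5.61 at E50 and 9.75 to 10.59 later, a change of 2.22 ± 0.88 (adjusted p = 0.121). The light chains DYNLRB1, DYNLT1 and DYNLT3 changed by 0.05 to 0.41 in that step. DYNC1I1, the intermediate chain known from neurons, changed by -0.25 ± 0.21.

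The 2 core actin-related proteins of the ARP2/3 complex were higher at E60 in every array without passing the test. ACTR2 had 11.64, 11.27 and 10.62 at E50 and 12.54, 12.32 and 12.32 at E60, a change of 1.21 ± 0.35 (adjusted p = 0.0508). ACTR3 had 10.72, 11.60 and 10.83 at E50 and 11.83, 12.03 and 11.77 at E60, a change of 0.83 ± 0.29 (adjusted p = 0.0845). In neither gene did the E50 and E60 arrays overlap, while the E70 arrays overlapped those of E50 in ACTR2 and those of E60 in ACTR3. A second ACTR3 probe set did pass, at 1.02 (adjusted p = 0.0296, limma). ACTR6 changed by 0.58 ± 0.34, and the dynactin filament proteins ACTR1A and ACTR1B by -0.57 ± 0.32 and -0.72 ± 0.54, none of which passed.

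The ARP2/3 subunits went the other way where they passed. ARPC3 had 12.53, 12.50 and 12.60 at E50, 11.57, 11.36 and 11.52 at E60 and 11.42, 11.30 and 11.26 at E70. The E50 arrays were all above the later ones, and the fall was -1.06 ± 0.19, or 2.08-fold (adjusted p = 0.012, limma). The call was lost in 4 of 18 alternatives. These were median centring (-0.28, adjusted p = 0.410), array weights, the fit of those stages alone (adjusted p = 0.0525) and that without E60 replicate 2 (adjusted p = 0.0564). At E70 ARPC3 was lower than at E50 by 1.21 ± 0.19 as deposited (adjusted p = 0.0068, limma). That call was lost in 2 of 18 alternatives. These were median centring (-0.50, adjusted p = 0.156) and the fit of those stages alone (adjusted p = 0.0516).

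ARPC1B, a subunit most abundant in blood-derived cells, had 11.50, 11.11 and 11.17 at E50, 10.07, 10.52 and 9.94 at E60 and 8.57, 9.49 and 9.63 at E70. Each stage lay wholly below the one before. From E50 to E70 it fell by 2.03 ± 0.34, or 4.08-fold (adjusted p = 0.00809, limma), a call lost in 1 of 18 alternatives, array weights (adjusted p = 0.0792). ARPC1A, the other isoform of that subunit, changed by 0.29 ± 0.27 and -0.29 ± 0.27 in the 2 steps and passed in neither. Of 8 macrophage and leukocyte markers, 4 were lower and 1 (C1QA) higher at E70 than at E50, and the mean over the list ranged over 7.33 to 8.35 on the E50 arrays, 5.62 to 6.77 on the E60 and 5.49 to 5.58 on the E70 arrays. PTPRC, the pan-leukocyte marker, was below background on every array, CD14 on every array of E60 and E70, and C1QA on every E50 array. Only 3 of the 8 were above background on all E50 arrays. Log2 backgrounds were 6.28 to 8.56 at E50 and 5.24 to 5.80 later, so the list mean was lower where background was lower. The part of such cells in the ARPC1B fall was not tested.

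Of the remaining ARP2/3 subunits, ARPC4 and ARPC5L changed by 0.01 and -0.14 from E50 to E60, and ARPC2 was below background on every E50 and E60 array and above it on 2 E70 arrays.

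CAPZA2, an alpha subunit of the capping protein that blocks the growing end of actin filaments, had 10.25, 10.56 and 9.61 at E50, 12.54, 11.90 and 12.35 at E60 and 12.27, 11.88 and 12.07 at E70. No later array overlapped E50. It rose by 2.12 ± 0.32 to E60, or 4.36-fold (adjusted p = 0.00648, limma), and by 1.94 ± 0.32 to E70. Of 18 alternatives only the mean over its 2 probe sets lost these calls (adjusted p = 0.0734 and 0.156). CAPZB, its beta partner, had 6.44 to 8.42 at E50 and 7.36 to 8.10 later, a change of 0.10 ± 0.52. The stages overlapped fully for CAPZB.

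TMSB10, which binds actin monomers, had the brightest member signals and fell most clearly as deposited. Its arrays read 18.20, 18.14 and 18.56 at E50, 15.74, 15.92 and 15.96 at E60 and 15.62, 15.61 and 15.43 at E70. Each stage lay below the one before. The fall to E60 was -2.43 ± 0.22, or 5.38-fold (adjusted p = 0.00135, limma), and to E70 it was -2.75 ± 0.22, or 6.72-fold (adjusted p = 0.000594). Under quantile normalization, which sets arrays equal by rank, the changes were -0.09 (adjusted p = 0.797) and -0.51 (adjusted p = 0.141). In rank among all probe sets TMSB10 stood 7th to 14th on the E50 arrays, 11th to 18th at E60 and 26th to 43rd at E70, so the ranks of E50 and E60 overlapped. Its second, dimmer probe set also fell, by 1.25 (adjusted p = 0.0397) and 1.60 (adjusted p = 0.0170).

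CFL1, the cofilin of nonmuscle cells, which severs actin filaments, had 13.63, 12.98 and 12.36 at E50, 11.82, 11.66 and 11.68 at E60 and 12.05, 12.14 and 12.08 at E70. The E50 arrays lay above all others but spread over more than a log2 unit. It fell by 1.27 ± 0.33 to E60, or 2.41-fold (adjusted p = 0.0361, limma), and 10 of 18 alternatives lost the call. Among them were median centring (-0.50, adjusted p = 0.416) and the fits without any E60 or E70 array or E50 replicate 2 (adjusted p = 0.0538 to 0.111). CFL2, the muscle cofilin, and PFN2, a profilin, changed by -0.07 ± 0.25 and -0.22 ± 0.21. CFLAR changed by 0.78 ± 0.57, with 1 E50 array lower than all others.

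The unconventional myosins differed among themselves. MYO6, a motor that walks toward the minus end of actin filaments and acts in endocytosis, had 9.45, 9.56 and 8.81 at E50, 10.48, 10.29 and 10.47 at E60 and 9.74, 10.04 and 9.98 at E70. The later arrays lay above E50, and those of E70 lay between the others. It rose by 1.14 ± 0.27 to E60, or 2.20-fold (adjusted p = 0.0257, limma), and 7 of 18 alternatives lost the call. Among them were the fits without any E60 array (adjusted p = 0.0735 to 0.0918), of those stages alone (adjusted p = 0.0810) and after quantile normalization (adjusted p = 0.0682).

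MYO1C, a class I myosin that links actin to membranes, had 8.01, 8.78 and 9.74 at E50, 6.97, 7.35 and 6.66 at E60 and 7.54, 7.48 and 7.34 at E70. It fell by 1.85 ± 0.44 to E60, or 3.60-fold (adjusted p = 0.0272, limma), with no overlap. The call was lost in 8 of 18 alternatives, among them the fits without any E60 array (adjusted p = 0.0607 to 0.0930). Quantile normalization (-1.44, adjusted p = 0.105) and median centring (-1.07, adjusted p = 0.0773) lost it too.

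MYO10, a filopodial myosin, had 7.58, 9.14 and 9.89 at E50, 5.54, 5.55 and 5.36 at E60 and 6.38, 3.49 and 3.43 at E70. It was above background on 2 E50 arrays and on 1 array of each later stage, so at no stage did all 3 arrays measure it. The fitted changes of -3.39 ± 0.89 to E60 (adjusted p = 0.0382, limma) and -4.43 ± 0.89 to E70 (adjusted p = 0.0148) are therefore of uncertain size. Of 17 alternatives 12 lost the first, quantile normalization (adjusted p = 0.0662) and median centring (adjusted p = 0.0649) among them, and 4 lost the other. Leaving out any E60 array, or replicate 2 or 3 of E50 or E70, lost the first (adjusted p = 0.0514 to 0.106), and replicate 2 or 3 of E70 the other (adjusted p = 0.0548 to 0.0569).

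MYO5A, a carrier of vesicles along actin, had 9.76 to 10.17 at E50 and 10.20 to 10.40 later, a change of 0.23 ± 0.21 (adjusted p = 0.487). MYO5B, its epithelial relative, read 9.13, 4.13 and 4.63 at E50 and 7.77 to 8.85 later. Its E50 arrays were discordant, and its change of 2.07 ± 1.19 did not pass. MYO1E, MYO1F and MYO7A had changes of -2.42, -1.06 and -1.97 with standard errors of 1.30, 0.63 and 1.34, and none passed.

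VCL, vinculin, which ties actin to integrin and cadherin junctions, had 10.98, 11.49 and 10.86 at E50, 11.99, 12.03 and 12.01 at E60 and 12.33, 12.36 and 12.07 at E70. Each stage lay above the one before. The rise was 0.90 ± 0.24 to E60, or 1.87-fold (adjusted p = 0.041, limma), and 1.14 ± 0.24 to E70, or 2.21-fold (adjusted p = 0.0183). The first was lost in 12 of 18 alternatives, among them the fits without any E60 or E70 array or E50 replicate 1 or 3 (adjusted p = 0.0506 to 0.122). The other was lost in 5 alternatives, among them the fits without E70 replicate 1 or 2 (adjusted p = 0.0622 to 0.0636) and of those stages alone (adjusted p = 0.0871). Its 2 other probe sets were near or below background at all stages, and averaging them in turned the E60 change to -0.47 (adjusted p = 0.593) and the E70 change to 0.41 (adjusted p = 0.643).

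TPM1, a tropomyosin that lines actin filaments in muscle and other cells, gave opposite readings from its probe sets. The brightest had 14.42, 14.44 and 14.64 at E50, 13.97, 14.08 and 14.17 at E60 and 13.73, 13.47 and 13.64 at E70. Each stage lay below the one before, and from E50 to E70 it fell by 0.89 ± 0.20, or 1.85-fold (adjusted p = 0.0238, limma). A second probe set, above background on all 9 arrays, rose by 2.43 to E60 (adjusted p = 0.00126) and was 1.60 higher at E70 than at E50 (adjusted p = 0.00349). Probe sets of 1 gene can read different transcripts, and the 3′ to 5′ control ratios also differed between E50 and the later stages. The part of either in this disagreement was not tested, and no level of TPM1 as a whole is given here. The fall was lost in 10 of 18 alternatives, among them the fits without any E70 array or E60 replicate 1 or 2 (adjusted p = 0.0508 to 0.0813). It was -0.38 under quantile normalization (adjusted p = 0.263) and -0.18 under median centring (adjusted p = 0.596), and both lost the call.

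TPM4, a tropomyosin of nonmuscle cells, had E50 arrays of 14.04 to 14.16, E60 arrays of 13.94 to 14.06 and E70 arrays of 13.76 to 13.87, and TPM3 changed by -0.51 ± 0.28 from E50 to E60. Neither passed.

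Disagreement between probe sets touched other members too. DYNLL2, a dynein light chain, changed by 0.12 from E50 to E60 on its brighter probe set, whereas its dimmer one fell by 1.13 (adjusted p = 0.0458, limma). From E50 to E70 they changed by 0.76 and -1.49 (adjusted p = 0.0542 and 0.0183). Over those stages CFLAR changed by -0.18, whereas its other probe set, below background on every E50 array, rose by 2.66 (adjusted p = 0.0186). ACTR6 changed by 0.77, whereas another of its probe sets fell by 0.91 (adjusted p = 0.0486). Of the 11 members called between E50 and E60, 6 had 9 further probe sets, of which 5 had the same sign and 0 were called in the opposite direction. From E50 to E70, 7 of the 12 called members had 11 further probe sets, of which 6 had the same sign and 1, of TPM1, was called opposite.

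The E60 and E70 arrays had similar EF1A ratios and backgrounds. Their actin ratios, 30.1 to 34.9 and 22.9 to 26.3, did not overlap and were far above their EF1A ratios. Between these stages limma called 0 of the 53 genes in the fit of all 9 arrays. It also called 0 in a fit of those stages alone, where 0.724% of all genes were higher and 1.18% lower. At an unadjusted p under 0.05, 4 members were higher, against 4.46% of all genes, and 2 lower, against 5.22%. The standard errors of the fit of all 9 arrays also hold the E50 spread. CFLAR, whose E70 arrays were all below those of E60, changed by -0.96 ± 0.57 in it (adjusted p = 0.845, limma). In the fit of those stages alone its SE was 0.16 (adjusted p = 0.0642), and its other probe set changed by 0.22. The 6 genes with an unadjusted p under 0.05 in the fit of all arrays are named here for their small p.

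The 4 with higher signals were motor genes and TUBB. DYNC1H1, the heavy chain that is the motor of cytoplasmic dynein, had 9.95, 10.00 and 9.86 at E60 and 10.70, 10.76 and 10.84 at E70. The E50 arrays, at 10.46, 10.10 and 10.34, lay between. The change from E60 to E70 was 0.83 ± 0.20, or 1.78-fold (adjusted p = 0.249, limma). It passed with array weights (adjusted p = 0.0140) and with a trended, robust prior (adjusted p = 0.0182).

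KIF5C changed by 0.90 ± 0.25 in this step (adjusted p = 0.340) and passed with array weights (adjusted p = 0.0213). TUBB changed by 0.74 ± 0.22 (adjusted p = 0.363) and passed with the trended prior (adjusted p = 0.0219). DYNLL2 had 11.58, 11.20 and 11.46 at E60 and 12.04, 11.96 and 12.16 at E70, a change of 0.64 ± 0.22 (adjusted p = 0.499). Its dimmer probe set went the other way, by -0.36 (adjusted p = 0.990). In each of these genes the E70 arrays were all above the E60 arrays.

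The 2 with lower signals were ARP2/3 subunits. ARPC5 had 11.02, 10.83 and 10.77 at E60 and 10.05, 10.33 and 10.18 at E70, a change of -0.69 ± 0.24 (adjusted p = 0.509, limma), which passed with array weights (adjusted p = 0.0467). ARPC1B changed by -0.94 ± 0.34 (adjusted p = 0.527). Their E70 arrays were all below those of E60.

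**Figure D4:**
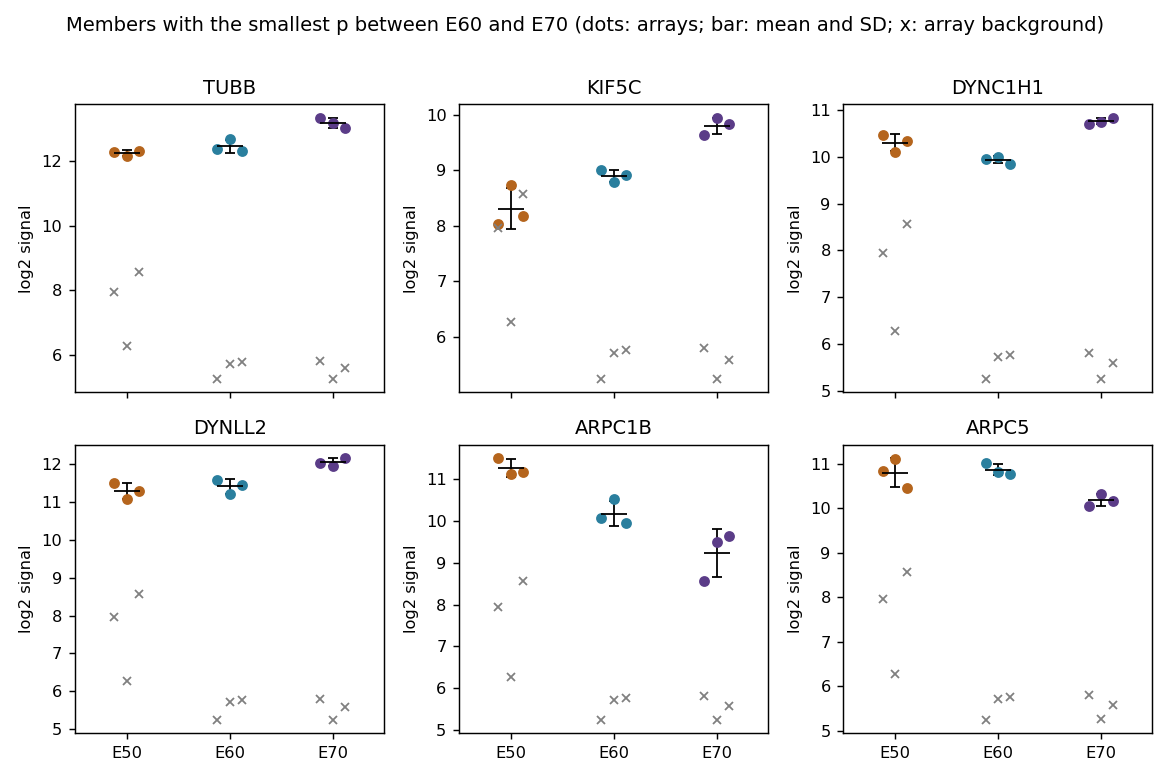
Log2 signal on each array of the 6 genes with an unadjusted p under 0.05 between E60 and E70, with the mean and SD of each stage as a bar and array background as a cross; vertical axes differ between panels. TUBB, KIF5C, DYNC1H1 and DYNLL2 are higher and ARPC1B and ARPC5 lower on every E70 array than on any E60 array, though none passed the adjusted test.

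Counted over all 53, the E60 arrays lay wholly above the E50 arrays in 13 genes, where 18.2% of all genes did, and wholly below in 10, where 27.5% did. The E70 arrays lay wholly above those of E60 in 11, where 18.4% of all genes did, and wholly below in 10, where 15.7% did.

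Genes that work with these proteins were counted from lists of their own. Of 5 actins, 3 fell from E50 to E60: ACTA2 by 1.47 (adjusted p = 0.00667, limma), ACTC1 by 1.75 (adjusted p = 0.0106) and ACTG1 by 1.05 (adjusted p = 0.0128), which turned to 0.21 under quantile normalization. After median centring none of these falls passed in that step (ACTA2 -0.69, ACTC1 -0.98, ACTG1 -0.27; adjusted p = 0.0667, 0.0995 and 0.458). ACTC1 and ACTA2, the actins of heart and of vascular smooth muscle, fell again from E60 to E70, by 2.67 (adjusted p = 0.0181) and 1.62 (adjusted p = 0.0383). ACTB, the common cytoplasmic actin, changed by 0.03 from E50 to E60 and ACTG2, a smooth muscle actin of the gut, by 0.34, which did not pass. Of 22 skeletal muscle markers 11 fell and 0 rose in the earlier step (5 fell under quantile normalization and 3 under median centring), 2 fell in the later, and the list mean ranged over 7.47 to 8.25 on the E50 arrays, 6.45 to 6.67 on the E60 and 4.84 to 5.55 on the E70 arrays. Above background on all arrays of the stage were 10 of these markers at E50, 17 at E60 and 10 at E70. MYH2 and MYOD1 were below on every array. As deposited, ACTC1, ACTA2 and the brightest TPM1 probe set were lower at E70 than at E50, as that list was. The TPM1 difference passed under neither other scaling, and the part of muscle tissue in these differences was not tested.

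Other partners moved in small numbers between E50 and E60, and many of the calls depended on the scaling. Of 4 chains of nonmuscle myosin II, the light chains MYL9 and MYL6 fell, by 1.24 (adjusted p = 0.0192, limma) and 0.77 (adjusted p = 0.0422), but after median centring MYL9 was at -0.47 (adjusted p = 0.320) and MYL6 turned to 0.0040 (adjusted p = 0.993). Of 8 dynactin subunits and adaptors DCTN6 fell by 0.92 (adjusted p = 0.0214; -0.14 and 0.702 after median centring), and of 4 kinesin partners none passed. Of 20 microtubule-associated proteins, MAP2 rose by 0.74 and TPPP3 and MAP4 fell by 1.70 and 0.83, to which median centring gave -0.93 (adjusted p = 0.110) and -0.06 (adjusted p = 0.897). Of 19 regulators of actin assembly, WASL, which switches on the ARP2/3 complex, rose by 0.87 (adjusted p = 0.0428), and BRK1, a subunit of the WAVE complex that does the same, fell by 2.10 (adjusted p = 0.00215). BRK1 passed under both other scalings, whereas the rises of MAP2 and WASL did not pass under quantile normalization (adjusted p = 0.0744 and 0.120).

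Of 20 adhesion and crosslinking genes 5 fell, 4 under quantile normalization and 0 under median centring, and 1 rose, LCP1, which was below background on every E50 array (adjusted p = 0.0141). Of 9 intermediate filament and lamin genes 4 fell, 3 under quantile normalization and 1 under median centring. VIM was among them, by 1.00 as deposited, which turned to 0.65 under quantile normalization. Of 5 septins SEPT7 rose by 1.09 and SEPT6 passed from below background on every E50 array to above it on every E60 array. Of 16 cell division markers 3 rose and 0 fell: MAD2L1 by 0.97, CCNB1 by 0.82 and CCNA2, which was below background on every E50 array and above it on every E60 array. Under quantile normalization 1 of the 16 rose and under median centring 7.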

How the data were processed

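The authors deposited MAS 5.0 signal intensities of 9 Affymetrix Porcine Genome Arrays, scaled to an equal trimmed mean, 500.1 on every array. The signals were set to a floor of 1 and taken to log2. Of 24123 probe sets, 124 controls were left out. Symbols came from the platform annotation: 10069 probe sets had 1 symbol, 198 several and 13732 none, and all 53 members matched a RefSeq symbol. The fit used limma (version 3.58.1; R version 4.3.3) on 23999 probe sets, with adjusted p over all of them, and counted on 1 probe set per gene, the brightest. Scripts were tested on simulated data. Alternatives were quantile normalization, median centring, a floor of 16, a background filter, a trended robust prior, array weights, only the stages compared, each array left out, a replicate block, the mean over probe sets, and leaving out symbols of other roles. Named genes were, per role, the 3 with the smallest F p and the brightest; further members are named to account for all, and of other lists up to 3 called genes a step, or more where a list is counted out. The members and lists were chosen with earlier results of these data known. Array number and signal limit precision.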

Additional observations from a re-analysis of the deposited data

How the results depend on the processing

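Against 12 genes changed over the stages, 6 higher and 5 lower at E60 than E50, and 7 higher and 5 lower at E70 than E50, the counts in that order were as follows. Array weights gave 5, 2, 2, 3 and 2, median centring 20, 18, 1, 16 and 3, and a trended robust prior 21, 10, 7, 11 and 9. Only the stages compared gave 2, 2, 2 and 2 for the pairs of stages. Quantile normalization left 3 genes lower at E60. From E60 to E70, array weights called 2 higher and 1 lower and the trended prior 2 higher. The samples share only a replicate number (deviations correlated between -0.021 and 0.026), and the replicate block gave 4, 3, 2, 4 and 4. Leaving out 1 array gave 5 to 19, 2 to 9, 1 to 6, 3 to 10 and 3 to 8, and 0 to 0 in the later step. Median changes of the 53 became 0.85 and 0.84 against E50 under median centring and -0.013 for E70 minus E60 under array weights, and with 1 array left out they ran from 0.011 to 0.101, 0.013 to 0.211 and -0.046 to 0.088. The mean over probe sets reversed TPM1 (0.35) and CFLAR (1.24) at E70 and VCL (-0.47) at E60 against E50. A floor of 16, the background filter, leaving out symbols of other roles and the mean over probe sets kept every count within 1.5 times. The causes were not tested. At E50, background limits what low signals show.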
